A study of Homo sapiens and Mus musculus with 10 samples.

Results

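The genes described here encode the chains of collagens and laminins, the long structural proteins of the extracellular matrix. They were selected by their symbols in the count tables of HEK293T, an established human embryonic kidney cell line: COL, digits, A and digits, or LAMA, LAMB or LAMC and a digit. A total of 44 such genes were listed in either table, 34 collagen and 10 laminin genes, among 17728 transcripts in all. The description covers the 33 genes (27 collagen, 6 laminin) chosen by having 50 or more reads in some library, so read counts set the membership and say nothing further about it. Just inside that limit were COL8A2 and COL17A1 (at most 50 reads in any library), COL5A3 (53), COL4A3 (58) and COL4A6 (59). Just outside were COL23A1 (48 reads), COL4A5 (34), COL21A1 (33) and LAMA4 (30). COL16A1, COL15A1, COL28A1, LAMB3, LAMB4 and COL1A2 had between 2 and 23 reads in their highest library.

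Each collagen chain folds with others of its kind into a triple helix inside the endoplasmic reticulum (ER), after hydroxylation of its prolines and lysines and with the help of dedicated chaperones. Fibrillar collagens then assemble into fibrils, type IV collagens into the network of basement membranes, and other types coat fibrils, span cell membranes or form beaded filaments. Laminins are cross-shaped trimers of an alpha, a beta and a gamma chain, and they nucleate basement membranes and bind integrins and dystroglycan on the cell surface. Both families depend heavily on ER folding and export.

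By the submitters' design text, RNA was sequenced after removal of ribosomal RNA, here in 7 HEK293T libraries. The stress set consisted of wild-type (WT) cells with 1 library per condition: mock treatment, glucose deprivation for 24 h (GD) and 300 nM thapsigargin for 6 h (TG). Thapsigargin blocks the calcium pump of the ER and causes ER stress, and the submitters describe GD as metabolic oxidative stress. The genotype set consisted of 4 libraries, mock and GD (24 h) of WT cells and the same of UFD1s-deficient cells. The labels do not say how the UFD1s-deficient cells were made or whether they are 1 clone.

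Counted reads per library ranged from 11461365 (WT GD, genotype set) to 19024327 (TG). The targeted gene could not be used to check the labels. The stress table listed a UFD1 transcript at 10, 0 and 0 reads in mock, GD and TG, and the genotype table listed another at 168 (WT mock), 107 (WT GD), 199 (deficient mock) and 193 reads (deficient GD). Neither is stated to be the form that is missing. Of 7 markers of HEK293T, 6 were listed, with VIM between 11447 and 16304, NEFL between 1146 and 3445 and LHX1 between 81 and 288 reads per library. The others were low, KRT18 at 8 to 37 reads, KRT8 at 0 to 2 reads in the stress set and 28 to 77 (another transcript) in the genotype set, and NEFM at 4 to 8 reads in the stress set, while PAX2 was not in either table. The WT mock libraries of the 2 sets stood apart, as their collagen and laminin values below show. These are bulk libraries, so fewer cells of a kind and less RNA per cell cannot be told apart.

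Promoters are shown for the chains whose values are set side by side most often below. The table of RefSeq promoters (GRCh38.p14, 250 bases before to 50 after the start) held 31 windows for 25 of the 33 genes. It held none for COL1A1, COL3A1, COL9A3, COL5A2, COL14A1, COL6A1, LAMA1 and LAMC3, so the motif shares below do not cover these chains. COL4A1 and COL4A2, the main chains of the basement membrane network, are neighbours on chromosome 13 that are read in opposite directions from starts 127 bases apart. The window of COL4A2 is chr13:110307034-110307333 on the plus strand. Its capitals mark the 226 bases that it shares, as the opposite strand, with the window of COL4A1 (chr13:110307108-110307407, minus strand).
COL4A2: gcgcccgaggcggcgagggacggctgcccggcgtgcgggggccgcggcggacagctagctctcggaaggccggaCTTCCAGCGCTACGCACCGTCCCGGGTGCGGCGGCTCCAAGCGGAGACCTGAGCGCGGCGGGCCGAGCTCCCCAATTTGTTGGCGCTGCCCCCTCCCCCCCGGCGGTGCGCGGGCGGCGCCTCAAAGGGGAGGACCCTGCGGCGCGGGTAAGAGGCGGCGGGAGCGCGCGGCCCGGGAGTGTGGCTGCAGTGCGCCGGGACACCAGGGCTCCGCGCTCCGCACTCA
The next windows belong to LAMA5 (chr20:62367263-62367562, minus strand) and LAMB1 (chr7:108003112-108003411, minus strand), the laminin chains called in the tests of GD and of genotype below. Capitals mark GGGCGG on either strand, the core of a GC box, of which LAMA5 held 5 and LAMB1 held 4.
LAMA5: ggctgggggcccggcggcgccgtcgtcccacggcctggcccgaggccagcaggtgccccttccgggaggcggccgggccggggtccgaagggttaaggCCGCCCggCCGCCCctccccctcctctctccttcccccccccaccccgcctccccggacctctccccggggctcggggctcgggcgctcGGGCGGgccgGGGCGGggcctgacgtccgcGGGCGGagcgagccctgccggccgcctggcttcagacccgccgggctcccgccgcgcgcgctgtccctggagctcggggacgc
LAMB1: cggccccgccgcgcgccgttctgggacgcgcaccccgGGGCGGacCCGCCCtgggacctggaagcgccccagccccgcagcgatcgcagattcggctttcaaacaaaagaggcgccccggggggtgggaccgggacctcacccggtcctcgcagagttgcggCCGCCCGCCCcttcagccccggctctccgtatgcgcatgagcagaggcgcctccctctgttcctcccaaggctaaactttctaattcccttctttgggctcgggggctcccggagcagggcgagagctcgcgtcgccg
COL4A3 and COL4A4 on chromosome 2 are arranged in the same way as the COL4A1 and COL4A2 pair, with starts 419 bases apart and windows that share 82 bases.

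Both strands of the windows were searched for 7 motifs, and a match describes letters only. GGGCGG was found in 67.7% of the 31 collagen and laminin windows and in 45.0% of all 35116 windows in the table. TATAAA was found in 22.6% against 11.5%, CCAAT in 25.8% against 34.6%, and CCACG in 35.5% against 38.1%. TGACGT was found in 1 window, that of LAMA5 (3.2% against 8.0%). TGATGCAA was in 0 windows (0.9% of all), and so was the ER stress response element, CCAAT and CCACG with 9 bases between them (0.1% of all). The median GC content was 66.7% in the collagen and laminin windows and 58.7% in all windows.

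A laminin chain, LAMC1, had the highest level of the family. Levels of different genes are compared as CPM (reads scaled to the size of the library with edgeR's TMM factors) per kb of transcript, for the 31 genes whose transcript length was known. LAMC1, the widely used gamma chain, was first in all 7 libraries, from 94.2 in TG to 126 in the stress-set mock library. LAMB1 ranged from 31.0 to 50.2, and the alpha chains LAMA1 from 13.0 to 25.6 and LAMA5 from 3.32 to 35.7. LAMB2 ranged from 8.89 to 19.9 and LAMC3 from 4.19 to 9.05. The ranges of LAMC1 and of every other chain did not meet, while those of LAMB1, COL6A1 and COL5A1 overlapped.

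Among collagens, the highest levels per kb belonged to COL5A1, a minor fibrillar chain that sits within type I fibrils (21.1 to 77.1), and to COL6A1 of the beaded filaments (23.1 to 52.7). The network chains COL4A2 (14.0 to 44.8) and COL4A1 (10.7 to 35.5) came next. The 8 highest chains held between 79.9% and 86% of the summed level in each library. All other collagens with a known length stayed below 20 per kb in each library. COL3A1, a fibrillar collagen of soft tissues, ranged from 0.778 to 6.92. COL12A1, a coat protein of fibrils listed in the genotype set only, reached 8.38 in WT mock and 13.6, 16.4 and 18 in deficient mock, WT GD and deficient GD.

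Partner chains of the same trimer were present in unequal amounts. Summed per kb, the gamma chains were at 2.07 (deficient mock) to 6.04 times (TG) the level of the alpha chains and at 1.74 to 2.45 times that of the beta chains. The ratio of COL4A1 over COL4A2 was 0.742 to 0.95, where the common type IV trimer holds more COL4A1 than COL4A2 chains. COL5A1 was at 5.21 (TG) to 15.7 times (deficient GD) the level of COL5A2, its usual partner. COL6A1 was at 7.04 to 12.4 times the level of COL6A2. COL1A2, the partner of COL1A1 in type I collagen, was listed at 0, 0 and 2 reads in mock, GD and TG of the stress set, where COL1A1 had 459, 168 and 375 reads. Each of these ratios compares 1 transcript row per gene, so reads of other transcripts of the gene may not be included.

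**Figure D1:**
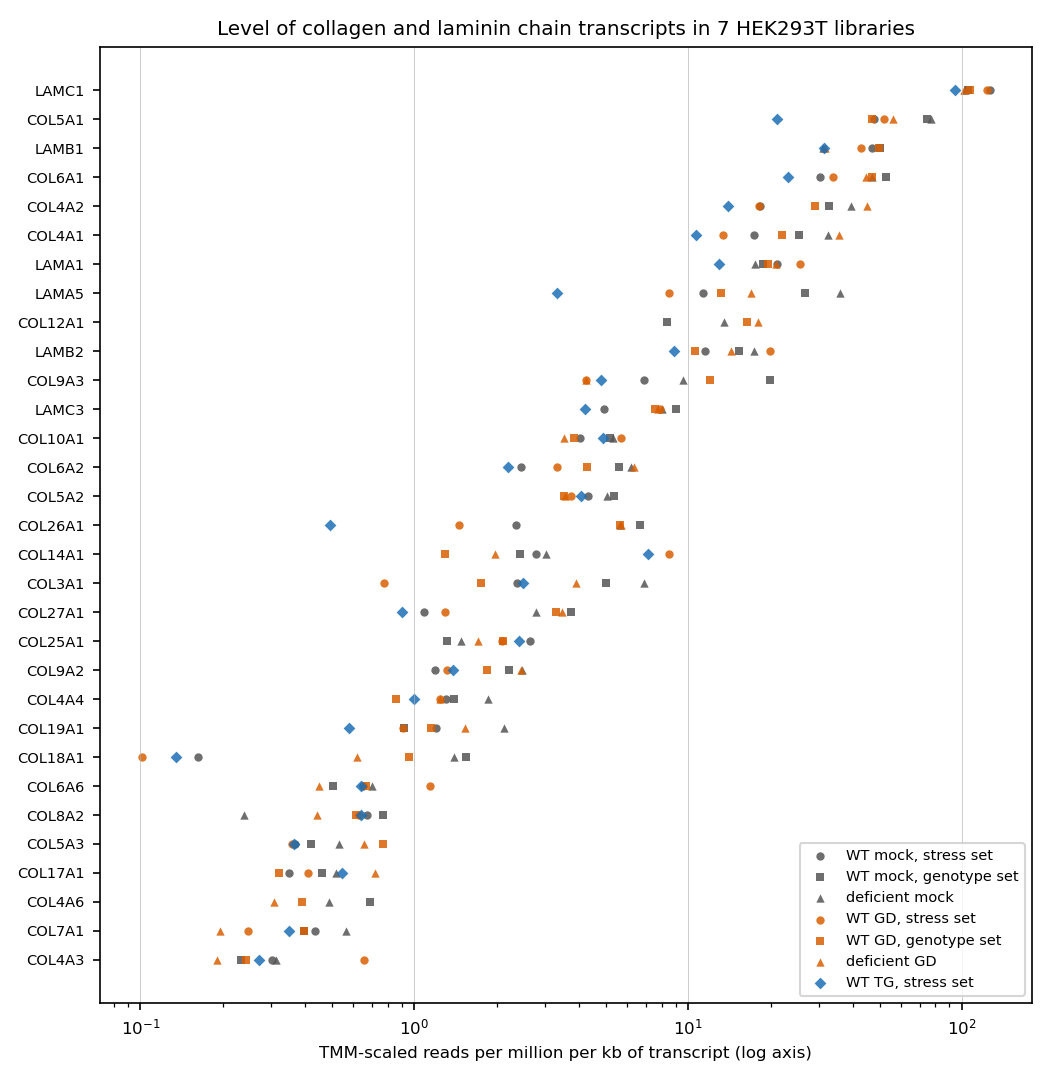
Level of each collagen or laminin chain with a known transcript length in 7 HEK293T libraries, as TMM-scaled CPM per kb of transcript on a log axis, ordered by mean level. Each symbol is 1 library, with shape for the set and genotype and colour for the treatment. LAMC1 is highest in every library. The TG library (diamonds) is lowest of all for COL5A1, LAMA5 and COL26A1. It is also lowest for LAMC1, LAMA1, LAMB2, LAMC3, COL4A1, COL4A2, COL6A1, COL6A2, COL27A1 and COL19A1.

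Whether glucose deprivation changed these genes was asked over the 3 mock and GD pairs (WT in each set, deficient in the genotype set). Of the 31 chains that could be tested, 5 fell and 0 rose: the fibrillar COL3A1, COL1A1 and COL24A1, the fibril-associated COL9A3 and the laminin chain LAMA5. In edgeR's quasi-likelihood test with set, genotype and treatment as terms, 11.1% of 10368 transcripts were called lower and 9.75% higher at an adjusted p under 0.05. No chain was among the higher calls, and 5 of 31 is not far from the share of lower calls over all transcripts. At an unadjusted p under 0.05 with edgeR there were 10 of 31 chains and 3659 of 10368 transcripts. Of the 10 chains, LAMA1 was the only one with a positive change. DESeq2 called 5 chains, also all lower, and 19.1% of all transcripts. The median log2 change was -0.04 over the chains and -0.019 over all transcripts. With reads scaled to library totals alone the share of higher calls over all transcripts moved from 46.7% to 30.9%, the median of all transcripts to -0.099, and COL5A2 was called too (log2 change -0.51, adjusted p 0.03009 with edgeR).

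COL3A1 had the largest fall, with 208 reads in mock and 47 in GD of the stress set. In the genotype set it had 355 reads in WT mock against 108 in WT GD, and 514 in deficient mock against 251 in deficient GD. GD was therefore below mock in 3 of 3 pairs, at 0.329, 0.349 and 0.563 of mock after TMM scaling. Across the sets the levels overlapped, since deficient GD (21.6 CPM) was above mock of the stress set (13.1 CPM). The fitted log2 change was -1.28 (SE 0.194, edgeR adjusted p 0.00266).

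COL1A1, the major chain of type I collagen, had 459 reads in mock and 168 in GD of the stress set, 655 and 222 in WT of the genotype set, and 846 and 380 in the deficient cells. The ratios were 0.533, 0.388 and 0.517, and the log2 change was -1.07 (SE 0.140, edgeR adjusted p 0.001316). COL24A1, a minor fibrillar collagen, had 235 and 89 reads, 178 and 71 reads, and 282 and 116 reads in the same order. All 3 of its GD libraries were below their mock partners, with a log2 change of -1.02 (SE 0.182, edgeR adjusted p 0.005354).

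The other fibrillar chains were not called. COL5A2 had mock and GD reads of 483 and 289, 485 and 279, and 478 and 293, and a log2 change of -0.43 (SE 0.139) with an edgeR adjusted p of 0.05299. COL5A1, the most abundant fibrillar chain, had 6405 and 4799 reads in the stress set, 8044 and 4419 in WT and 8758 and 5511 in deficient cells of the genotype set. Its GD level was above mock in the stress set (ratio 1.09, 95% counting interval 1.05 to 1.13) and below it in the genotype set (0.630 and 0.725). COL27A1 and COL5A3 had log2 changes of 0.13 (SE 0.165) and 0.39 (SE 0.347).

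Among the fibril-associated collagens, COL9A3 fell. This chain of type IX collagen, known from cartilage, had 273 reads in mock and 115 in GD of the stress set, 630 and 334 in WT, and 320 and 123 in deficient cells. The ratios were 0.614, 0.608 and 0.443, and the log2 change was -0.86 (SE 0.159, edgeR adjusted p 0.00612). Its partner chain COL9A2 gave -0.05 (SE 0.258) and COL19A1 gave -0.19 (SE 0.240). COL9A3 and COL24A1 were not called without the deficient mock library or without the deficient GD library. These are nearly the same fit, as the deficient library that is left has no weight in the GD test. COL9A3 then had a log2 change of -0.71 in both fits (edgeR adjusted p 0.07978 and 0.0776), and COL24A1 had -0.99 in both (0.06713 and 0.06236).

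COL14A1, which coats fibrils, moved in opposite directions in the 2 sets. It had 286 reads in mock and 602 in GD of the stress set, 201 and 93 in WT of the genotype set, and 263 and 148 in the deficient cells. GD was at 3.07 of mock (95% counting interval 2.66 to 3.54) in the first pair and at 0.530 (0.410 to 0.681) and 0.648 (0.526 to 0.796) in the others, so the fitted log2 change of 0.08 (SE 0.417) describes none of them. COL12A1 was in the genotype set only and has no test. It had 1255 reads in WT mock against 2136 in WT GD, a ratio of 1.95 (1.82 to 2.09), and 2132 in deficient mock against 2450 in deficient GD, a ratio of 1.32 (1.25 to 1.40).

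The main network collagens stayed near mock. COL4A2 had mock and GD reads of 1894 and 1282 in the stress set, 2714 and 2097 in WT, and 3423 and 3387 in deficient cells, with a log2 change of 0.00 (SE 0.096). COL4A1 had 1834 and 969, 2143 and 1620, and 2883 and 2735 reads, with a log2 change of -0.15 (SE 0.108, edgeR adjusted p 0.3605). The kidney and eye chain COL4A4 gave -0.45 (SE 0.193, edgeR adjusted p 0.1315), and its partner COL4A3 gave 0.22 (SE 0.439) from 18 to 58 reads per library. COL6A1 had 2045 and 1561, 2852 and 2222, and 2660 and 2207 reads, and a log2 change of -0.03 (SE 0.0932).

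Of the laminins, LAMA5 fell while the chains it can pair with were not called. LAMA5, the alpha chain of most adult basement membranes, had 2058 reads in mock and 1060 in GD of the stress set, 3888 and 1679 in WT, and 5468 and 2256 in deficient cells. The ratios were 0.751 (95% counting interval 0.696 to 0.809), 0.495 (0.467 to 0.524) and 0.475 (0.452 to 0.499), so each GD library was below its mock partner. The log2 change was -0.84 (SE 0.128, edgeR adjusted p 0.002692).

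LAMA1, the alpha chain of early embryonic basement membranes, had 3247 and 2693, 2320 and 2112, and 2262 and 2353 reads in mock and GD. Its log2 change was 0.20 (SE 0.0881, edgeR adjusted p 0.1395). As a ratio of levels per kb, LAMA5 over LAMA1 was 0.536 in mock and 0.333 in GD of the stress set, 1.42 and 0.672 in WT of the genotype set, and 2.04 and 0.810 in the deficient cells. The ratio was thus lower in GD in each of the 3 pairs, and the 2 sets differed in which alpha chain was the higher in mock.

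LAMC1 had 15792 and 10572, 10601 and 9369, and 10812 and 9348 reads, with a log2 change of -0.01 (SE 0.0823). LAMB1 had 4260 and 2671, 3668 and 3165, and 2377 and 2102 reads, with a log2 change of -0.04 (SE 0.0843). These chains had the smallest errors of the family. LAMB2, the beta chain of muscle, nerve and kidney filter, had 1036 and 1229, 1113 and 667, and 1320 and 945 reads, above mock in the stress set (ratio 1.73) and below it in the genotype set (0.687 and 0.825). LAMC3 had 480 and 526, 709 and 518, and 660 and 556 reads, with ratios of 1.60, 0.837 and 0.971.

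The remaining tested chains were not called. COL18A1, source of the fragment endostatin, had a log2 change of -0.88 (SE 0.316, edgeR adjusted p 0.07658) and the anchoring fibril collagen COL7A1 had -0.76 (SE 0.376, edgeR adjusted p 0.1814). COL26A1 gave -0.28 (SE 0.196), COL10A1 -0.17 (SE 0.226), COL25A1 0.16 (SE 0.292), COL6A2 0.02 (SE 0.192), COL6A6 0.21 (SE 0.307), COL8A2 0.10 (SE 0.388) and COL17A1 0.08 (SE 0.381). The SEs of these 9 chains were all above those of LAMC1, LAMB1 and LAMA1.

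**Figure D2:**
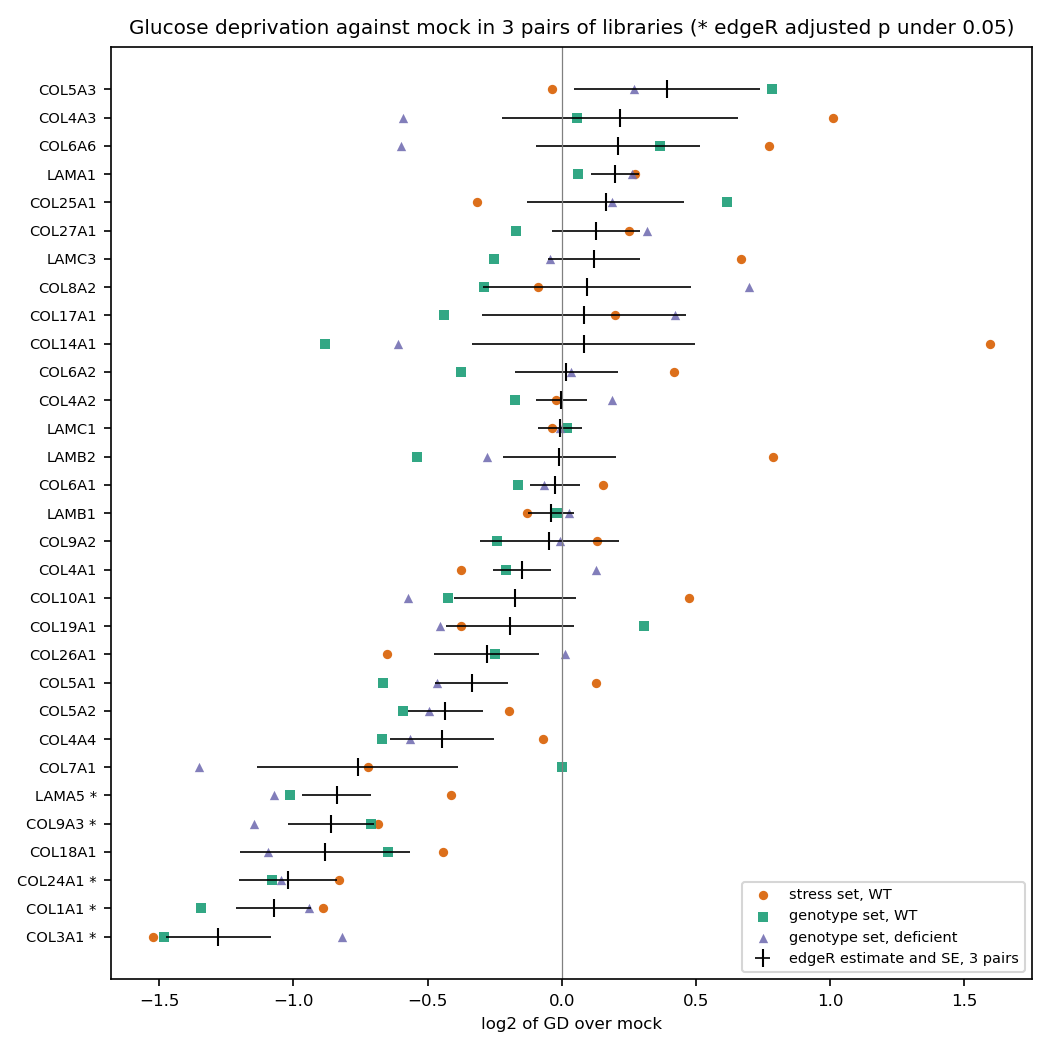
Log2 ratio of GD over mock for the 31 tested chains. Coloured symbols are the 3 single pairs of libraries, and black bars are the edgeR estimate with its SE over the 3 pairs. The 5 called chains (asterisks) lie at -0.84 to -1.28 with all 3 symbols left of 0, and COL14A1 and LAMB2 have the stress set on one side of 0 and the genotype set on the other.

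Single pairs were also read by a rule of size with no test: a change of at least 2-fold on TMM-scaled CPM with 5 added counts, with at least 50 reads in the library where the level was higher. In GD of the stress set, 2 of 28 chains were higher (COL14A1 and COL4A3) and 1 lower (COL3A1), where 3.52% and 3.71% of all transcripts were. COL4A3 reached 50 reads in that GD library alone, which is why it is among the genes described. In WT of the genotype set, 0 of 29 were higher and 4 lower (LAMA5, COL1A1, COL3A1 and COL24A1), with 2.36% and 4.42% of all. In the deficient cells, 0 of 28 were higher and 5 lower (LAMA5, COL9A3, COL24A1, COL18A1 and COL7A1), with 2.14% and 4.17% of all. COL18A1 had 102 reads in deficient mock and 39 in deficient GD, and COL7A1 had 70 and 21.

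The 2 sets differed in their GD response. A test of that difference, added after the reads of the pairs had been seen, called 10.4% of 10368 transcripts with edgeR, and 6 of 31 chains. In all 6 the response was lower in the genotype set than in the stress set. COL14A1 differed by -2.38 on the log2 scale (SE 0.276, edgeR adjusted p 6.598e-06) and LAMB2 by -1.20 (SE 0.155, adjusted p 2.471e-05). COL10A1 differed by -1.0, LAMC3 by -0.82, COL5A1 by -0.69 and LAMA5 by -0.63. DESeq2 called 3 of them (COL5A1, LAMA5 and LAMB2) and 2.65% of all transcripts. It did not call LAMC3 and gave no adjusted p for COL14A1 or COL10A1. The test of this difference has 1 residual degree of freedom, taken from how the WT and deficient pairs of the genotype set differ.

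The mock libraries differed between the sets as well. Under the 2-fold rule, 7 of 28 chains were higher in WT mock of the genotype set than in WT mock of the stress set, and 0 were lower, against 8.98% and 1% of all transcripts. The 7 were LAMA5 (ratio 2.35, 95% counting interval 2.23 to 2.48), COL9A3 (2.87), COL3A1 (2.12), COL27A1 (3.44), COL6A2 (2.27), COL26A1 (2.85) and COL18A1 (9.50, lower limit 5.42). COL18A1 had 14, 6 and 12 reads in the stress set and 39 to 107 in the genotype set. It reached 50 reads in the genotype set alone, where it is high, which is why it is among the genes described. Only transcripts in both tables enter these counts, and the genotype table has no row summing to under 75 reads. Transcripts rare in the genotype set are thus missing, so the higher and lower shares are not on an equal footing. Library, culture and sequencing run cannot be told apart here, since each set has 1 WT mock library.

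UFD1s-deficient cells were then compared with WT within the genotype set, in mock and in GD. COL9A3 and LAMB1 were lower in the deficient cells, and they were the only chains that edgeR called, 2 of 31, both lower. Over all 10368 transcripts, 0.781% were called lower and 0.328% higher. The median log2 difference was 0.03 over the chains and 0.008 over all transcripts. With edgeR, 9 of 31 chains and 1470 of 10368 transcripts had an unadjusted p under 0.05.

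COL9A3 had 630 reads in WT mock and 320 in deficient mock, and 334 in WT GD and 123 in deficient GD. The ratios of deficient over WT were 0.484 (95% counting interval 0.422 to 0.555) and 0.353 (0.285 to 0.435). The log2 difference was -1.25 (SE 0.192, edgeR adjusted p 0.02081). Its level in WT mock of the stress set, 17.2 CPM, was nearer to deficient mock (23.9) than to WT mock of the genotype set (49.3).

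LAMB1 had 3668 reads in WT mock and 2377 in deficient mock, and 3165 in WT GD and 2102 in deficient GD. The ratios were 0.617 (0.586 to 0.650) and 0.636 (0.602 to 0.672), and the log2 difference was -0.67 (SE 0.104, edgeR adjusted p 0.02134). The WT mock libraries of the 2 sets held 268 and 287 CPM of LAMB1, and deficient mock held 177. The WT mock and WT GD libraries of both sets were above both deficient libraries. The WT TG library, at 178.8 CPM, lay between deficient mock (177.3) and deficient GD (180.6). Neither chain was called without a deficient library, though the differences stayed about as large. Without deficient mock the log2 difference was -0.62 for LAMB1 (edgeR adjusted p 0.5217) and -1.51 for COL9A3 (0.2255), and without deficient GD it was -0.72 and -1.04 (0.5713 for both). LAMB1 was also not called without WT mock (-0.69, adjusted p 0.06732) or WT GD (-0.66, adjusted p 0.1332) of the genotype set.

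LAMB1's partner chains were close in the 2 genotypes, with log2 differences of -0.05 (SE 0.101) for LAMC1 and -0.01 (SE 0.108) for LAMA1. LAMA5 gave 0.40 (SE 0.154, edgeR adjusted p 0.2791) and LAMB2 0.29 (SE 0.255). Per kb, LAMB1 over LAMB2 was 3.27 in WT mock and 1.78 in deficient mock, and 4.70 in WT GD and 2.20 in deficient GD. LAMB1 remained the higher beta chain in all 4 libraries.

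The neighbours COL4A1 and COL4A2, whose shared promoter is printed above, had like differences. COL4A1 was at 1.28 (95% counting interval 1.21 to 1.36) of WT in mock and at 1.62 (1.52 to 1.72) in GD. COL4A2 was at 1.20 (1.14 to 1.26) and 1.55 (1.47 to 1.63). The log2 differences of 0.53 (SE 0.132) and 0.45 (SE 0.117) had edgeR adjusted p of 0.1038 and 0.1177, while DESeq2 called COL4A1 (0.54, adjusted p 0.04788). COL3A1 gave 0.80 (SE 0.228, edgeR adjusted p 0.1427) and COL1A1 0.49 (SE 0.167, edgeR adjusted p 0.2168), and neither was called.

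The error in that fit includes how far the stress set departs from the genotype set. In a fit of the genotype set alone, edgeR called 11 of 31 chains, where it called 18.7% of all 10368 transcripts. The 9 higher in deficient cells were COL19A1, COL1A1, COL24A1, COL3A1, COL4A1, COL4A2, COL5A1, LAMA5 and LAMB2, and the 2 lower were COL9A3 and LAMB1.

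Under the 2-fold rule, 1 chain was higher in deficient than in WT mock (COL19A1) and 1 lower (COL9A3) of 29, against 1.49% and 1.24% of all transcripts. COL19A1, a fibril-associated collagen, had 73 reads in WT mock and 177 in deficient mock. In GD, 1 was higher (COL3A1) and 1 lower (COL9A3) of 28, against 1.35% and 1.38% of all. COL12A1, not tested, was at 1.62 (1.51 to 1.74) of WT in mock and 1.10 (1.04 to 1.17) in GD.

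**Figure D3:**
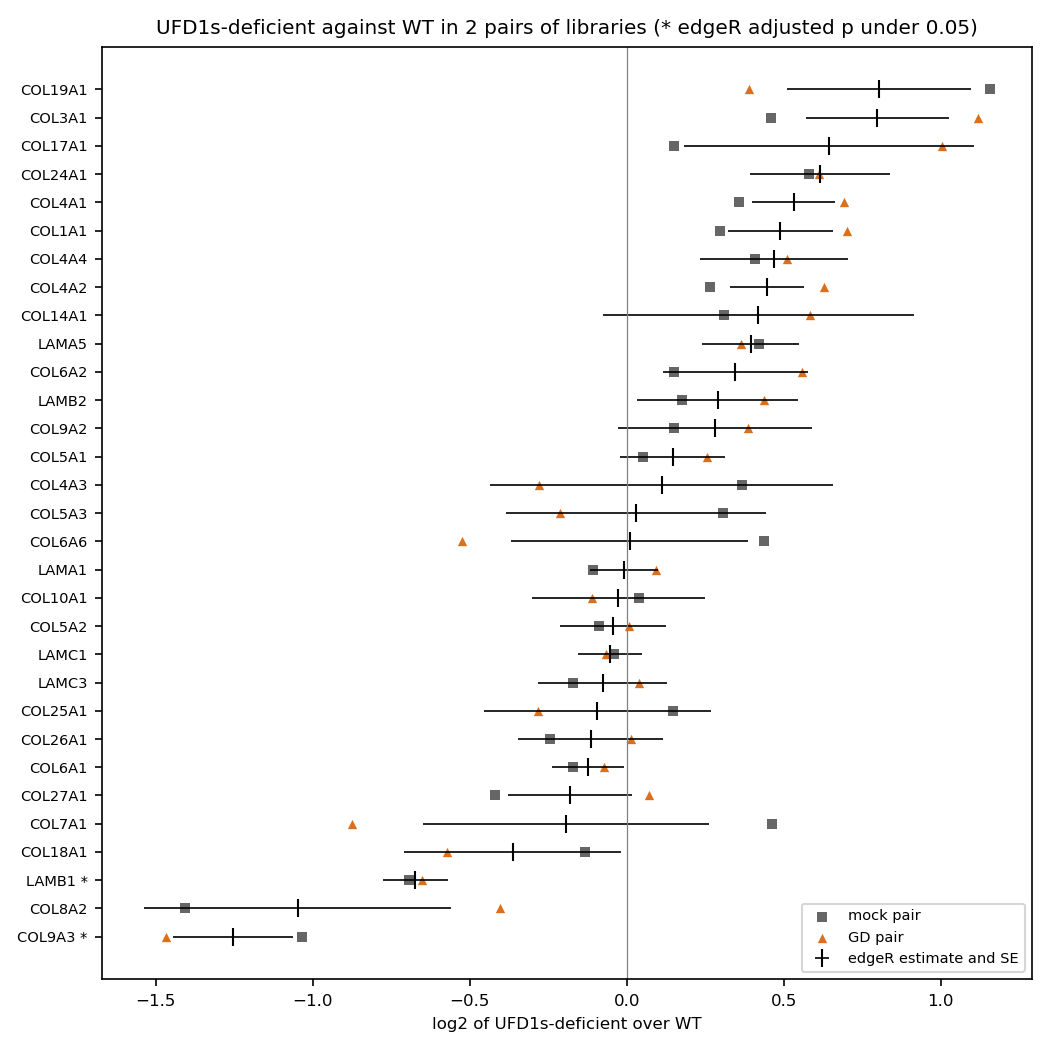
Log2 ratio of UFD1s-deficient over WT for the 31 tested chains, in mock (squares) and in GD (triangles), with the edgeR estimate and its SE in black. COL9A3 and LAMB1 (asterisks) lie at -1.25 and -0.67, and COL4A1, COL4A2, COL1A1 and COL3A1 lie right of 0 in both pairs without being called.

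Whether the GD response itself differed between the genotypes was tested with an interaction term. EdgeR called 0 of 31 chains and 0% of 10368 transcripts, and DESeq2 called 0 as well. The test sets the deficient response against the WT response of both sets. Its 1 residual degree of freedom comes from how the 2 WT pairs differ, and the sets differed in their GD response. A count of 0 therefore does not show that the genotypes respond alike. At an unadjusted p under 0.05 there were 0 chains and 123 transcripts. The largest estimates came from chains with few reads, COL4A3 (-1.35, SE 0.918) and COL6A6 (-1.25, SE 0.572). The log2 ratio of COL4A3 was 1.01 in the stress set, and 0.06 in WT and -0.59 in deficient cells of the genotype set. The first of these rests on the GD library that alone brought COL4A3 past 50 reads. COL3A1 gave 0.73 (SE 0.376) and COL1A1 0.19 (SE 0.335).

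Thapsigargin was compared with mock in the stress set, with 1 library each and so no test. Most chains were lower in the TG library, 23 of the 28 that reached 50 reads in at least 1 of them. Among the 28, COL17A1 reached 50 reads in the TG library alone and COL8A2 in this mock library alone. That is why these chains are among the genes described. Of 31 chains, 16 had a 95% counting interval of the TG over mock ratio below 1 and 2 above 1. These counts were not made over all transcripts, so they cannot be set against a share. The median log2 ratio of the 28 chains was -0.353, against 0.008 over 9116 transcripts. Under the 2-fold rule 5 of 28 were lower (COL5A1, LAMA5, COL24A1, COL26A1 and COL19A1) and 1 higher (COL14A1), where 3.36% and 4.75% of all transcripts were. The intervals cover counting error only and not the difference between cultures.

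The abundant chains showed this with narrow intervals. LAMA5 had 2058 reads in mock and 623 in TG, a ratio of 0.293 (0.267 to 0.320). COL5A1 had 6405 and 2942 reads, a ratio of 0.444 (0.425 to 0.464). Both intervals lay wholly below 0.5. LAMC1 had 15792 and 12211 reads (ratio 0.747), LAMB1 4260 and 2938 (0.667), LAMA1 3247 and 2062 (0.614) and LAMB2 1036 and 829 (0.773). All 6 laminin chains were thus below mock, with LAMC3 the closest to it (0.850, interval 0.744 to 0.970).

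Of the network chains, COL4A1 had 1834 reads in mock and 1159 in TG (ratio 0.611) and COL4A2 had 1894 and 1489 (0.760). COL6A1 had 2045 and 1612 reads (0.762). The less abundant COL26A1 had 111 and 24 reads (0.209, interval 0.129 to 0.327), COL24A1 had 235 and 115 (0.473) and COL19A1 had 119 and 59 (0.479). COL26A1 had the lowest ratio of the family.

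The 3 fibrillar chains that fell in GD differed from each other in TG. COL3A1 had 208 reads in mock and 227 in TG, a ratio of 1.06 with an interval of 0.870 to 1.28, against 0.329 for GD in the same set. COL1A1 was at 0.790 (0.687 to 0.907), against 0.533 for GD. COL24A1 was low in both, at 0.473 (0.375 to 0.594) in TG and 0.552 in GD. COL5A2, which was not called in GD, was at 0.945 (0.830 to 1.07). COL14A1 was above mock in both, at 2.56 (2.23 to 2.95) in TG and 3.07 in GD, from 286 mock reads. LAMA5 was below mock in both, at 0.293 in TG and 0.751 in GD. TG and GD share the 1 mock library, so an error in it would move both ratios alike, and the treatments differ in length.

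**Figure D4:**
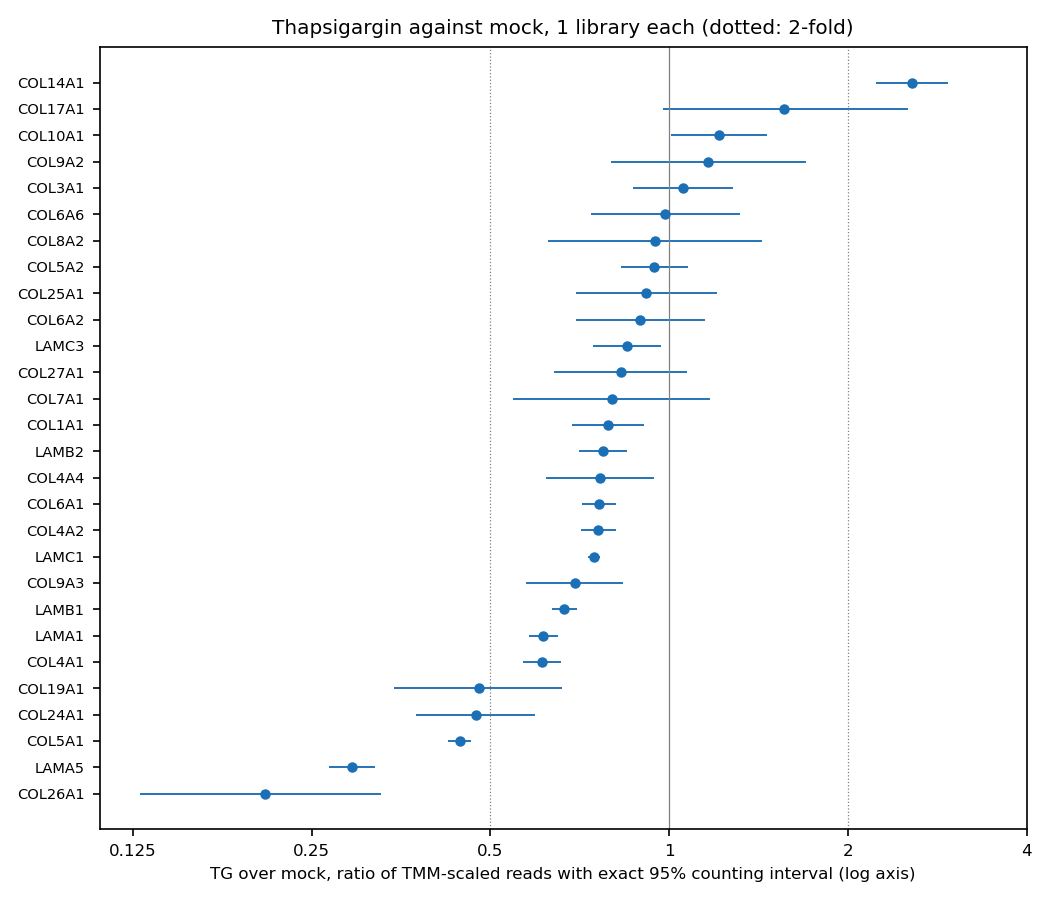
Ratio of TG over mock for the 28 chains that reached 50 reads in at least 1 of these libraries, as TMM-scaled reads with exact 95% counting intervals on a log axis. Dotted lines mark 2-fold. Most points lie left of 1, LAMA5 and COL5A1 lie below 0.5 with narrow intervals, and COL14A1 at 2.56 is the only point past 2-fold on the right. The other 4 points right of 1 are COL17A1 (1.56), COL10A1 (1.21), COL9A2 (1.16) and COL3A1 (1.06). COL17A1 reached 50 reads in the TG library alone, which is why it is among the genes described.

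Genes that collagens and laminins depend on were read from lists. Over all transcripts, 9.75% were called higher and 11.1% lower in GD by edgeR. In TG, 4.75% were higher and 3.36% lower past 2-fold. List counts near these shares are not read as results about a list. Of 13 tested collagen-modifying enzymes and chaperones, 2 rose in GD and 1 fell. COLGALT2, which adds galactose to collagen hydroxylysines, rose (log2 change 0.56, SE 0.143, edgeR adjusted p 0.02283), as did PPIB, a prolyl isomerase that speeds helix folding (0.44, SE 0.121, adjusted p 0.03176). P3H4, a scaffold of the lysyl hydroxylase complex, fell (-0.64, SE 0.160, adjusted p 0.02072). Its log2 ratio was -0.09 in the stress set and -0.91 in both pairs of the genotype set. In TG, 2 of 13 were past 2-fold, both higher. P4HB, the beta subunit of prolyl 4-hydroxylase, had 11299 reads in mock and 25534 in TG, and PPIB had 2269 and 5070. The list's median log2 value was 0.16 in GD and 0.06 in TG.

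Of 11 tested genes of collagen export, 3 rose in GD and 1 fell, against 9.75% and 11.1% of all transcripts. SEC24D, a cargo adaptor of COPII coats, rose (0.83, SE 0.221, edgeR adjusted p 0.02668), as did the ubiquitin ligase adaptor KLHL12 (0.41) and MIA3, the cargo receptor TANGO1 (0.41). The log2 ratio of SEC24D was 1.64 in the stress set, and 0.275 in WT and 0.523 in deficient cells of the genotype set. The small GTPase SAR1A, which starts coat assembly, fell (-0.78, SE 0.154, edgeR adjusted p 0.008085). In TG, 4 of 11 were past 2-fold and all 4 were higher: SEC24D with 1087 reads in mock and 9770 in TG, CREB3L2 with 3227 and 10421, SEC31A with 225 and 711, and TFG with 18 and 50. TFG reached 50 reads in the TG library alone of this pair, so it was counted only through the library where it was high. The median log2 ratio of these 11 in TG was 0.29, and 4.75% of all transcripts were higher past 2-fold.

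Outside the cell, collagens are trimmed and cross-linked. Of 13 tested enzymes of propeptide cleavage and cross-linking, 4 fell in GD and 1 rose, against 11.1% and 9.75% of all transcripts. TLL2, a relative of the C-propeptide protease BMP1, fell by 1.72 on the log2 scale (SE 0.210, edgeR adjusted p 0.001052), and ADAMTS2, which removes N-propeptides, fell by 0.72 (SE 0.149, adjusted p 0.01053). The cross-linking enzymes LOXL1 (-0.99) and TGM2 (-0.98) fell and LOXL2 rose (0.33). In TG, ADAMTS2 and TLL2 were lower past 2-fold and LOX was higher, of 12, against 3.36% and 4.75% of all transcripts.

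Other basement membrane genes such as agrin and perlecan had 6 members that fell in GD among 12 tested, against 11.1% of all transcripts. Their median log2 change was -0.47 over the 12. AGRN, the proteoglycan agrin, had 3615 reads in mock and 1734 in GD of the stress set, 7916 and 2401 in WT, and 8702 and 2724 in deficient cells (log2 change -1.18, SE 0.174, edgeR adjusted p 0.00236). HMCN1 (-0.91), the perlecan gene HSPG2 (-0.69), FRAS1 (-0.57), NID2 (-0.49), which bridges laminin and type IV collagen, and FREM2 (-0.45) fell too. For HSPG2 the log2 ratio was -0.09 in the stress set, and -1.03 in WT and -0.92 in deficient cells of the genotype set. AGRN and HSPG2 were also lower past 2-fold in TG, 2 of 12, against 3.36% of all transcripts. Of 10 receptors of collagens and laminins, SDC4 rose (0.36) and SDC2 fell (-0.54), and 0 of 6 were past 2-fold in TG. SDC2 had log2 ratios of -1.01 in the stress set, and -0.16 in WT and -0.45 in deficient cells of the genotype set.

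Markers of fibroblasts and mesenchyme, which also make fibrillar collagen, were measured beside these values. Summed over the 5 markers in both tables they came to 39.6 CPM in mock, 21.1 in GD and 27.5 in TG of the stress set. In the genotype set they came to 39.9 in WT mock, 35.4 in deficient mock, 27.0 in WT GD and 28.1 in deficient GD. TWIST1 held much of this sum (249 reads in mock of the stress set and 237 in WT GD), with a log2 change of -0.08 (SE 0.189) in GD. PDGFRA (-2.00) and LUM (-1.85) fell in GD by edgeR and THY1 rose (1.78), PDGFRB gave -1.30 (SE 0.501, adjusted p 0.09617), and DCN and FAP were not in either table. The median log2 change of the 5 markers was -1.30, which is the value of PDGFRB, and the markers ranged from -2.00 to 1.78. The marker sum was lower in GD in 3 of 3 pairs. Whether it has a part in the changes of COL3A1 and COL1A1 was not tested. VWF, the endothelial marker in both tables, had 31 to 91 reads and the muscle marker MYH3 had 67 to 182. No marker of glia or blood was in both tables, and in the stress set GFAP had 8 to 25 reads, S100B 0 to 4 and CD34 0 to 4.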

How the data were processed

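Both HEK293T tables hold the authors' deposited raw counts, 1 whole number of reads for each RefSeq transcript and library. RNA was extracted with TRIzol and made into libraries with Illumina's TruSeq Ribo Profile kit, per the labels' protocols. That kit is for ribosome profiling, while the submitters' design text gives RNA-seq after removal of ribosomal RNA. Which of these applies could not be settled, so levels per kb and chain ratios carry that doubt. The tools cutadapt, FastQC, Bowtie2 and bedtools and the build hg19 are listed in the submitters' processing notes, without versions. The sources used here do not say how reads were counted or whether by strand. The genotype table has no row summing to under 75 reads, so rarer transcripts are not analysed there. The mouse N2a libraries were not used here.

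Each gene has 1 transcript row per table. The 10368 transcripts in both tables were tested, 31 of them collagen and laminin chains, and COL12A1, COL4A6 and rows of 1 table only were described. Tests used edgeR 4.0.16 in R 4.3.3 (quasi-likelihood, TMM, default filter, which removed 0 transcripts, and Benjamini-Hochberg adjustment over all transcripts at 0.05) on the 6 libraries of mock and GD. The terms were set (from the titles), genotype and treatment, with 2 residual degrees of freedom. The genotype and GD interaction leaves 1. The alternatives included DESeq2 1.42.0, other scalings and filters, and leaving out each library. The scripts were tested on simulated counts.

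No condition was repeated within a set and nothing says that libraries came from separate cultures, so p-values measure how the response differs between pairs, which may be technical. For 1 library each, ratios have exact conditional 95% intervals for counting error only, which treat reads as independent molecules. Total counts per library and their range are in the report.

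Transcript lengths came from GENCODE 29 by RefSeq accession (31 of 33). Named genes are every chain called or past 2-fold, the 12 chains with most reads, and called genes of the other lists. Some genes of the lists are not reported here. The chains and the lists were chosen with earlier results of these data known.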

Additional observations from a re-analysis of the deposited data

Results flagged for a closer look

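A total of 6 chains had a GD response that differed between the genotype set and the stress set, by edgeR's interaction test of set and treatment (adjusted p under 0.05 over 10368 transcripts, a test added after the pairs had been seen). The response of the genotype set minus that of the stress set was -2.38 for COL14A1, -1.2 for LAMB2, -1 for COL10A1, -0.82 for LAMC3, -0.69 for COL5A1 and -0.63 for LAMA5, all on the log2 scale. COL14A1, LAMB2, COL10A1 and COL5A1 were above mock in GD of the stress set and below it in both pairs of the genotype set. LAMC3 was above mock in the stress set (log2 0.67) and near or below it in the genotype set (-0.25 in WT and -0.04 in deficient cells), and LAMA5 was below mock in all 3 pairs. COL12A1 and COL4A6 have no value here because they are in 1 table only. The stress set has 1 pair, and the cause of the difference was not tested.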

How the results depend on the processing

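The count of chains called in GD (5) was 5 or 6 under other scalings, filters and DESeq2. Leaving out 1 library at a time gave between 3 and 13. It was 12 and 13 without the mock or the GD library of the stress set and 3 without either deficient library, and 5 without either WT library of the genotype set. The genotype set alone gave 13 (12 lower, and LAMA1 higher), the WT libraries alone 3 (COL24A1 and COL9A3 were lost), and treatment as the only term 0 (3 at an unadjusted p under 0.05, edgeR). These counts moved with the calls over all transcripts. The share called in GD was 36.7% and 39% without the mock or the GD library of the stress set, 4.86% and 4.76% without the deficient mock or GD library, 39% in the genotype set alone, 4.74% in the WT libraries alone and 0.222% with treatment as the only term. COL3A1, COL1A1 and LAMA5 passed in all of these fits except that with treatment as the only term. The genotype count (2) was 2 or 3 under other scalings, filters and DESeq2, and the genotype set alone gave 11. Leaving out 1 library at a time gave between 0 and 11: it was 10 and 11 without the mock or the GD library of the stress set, 0 without either deficient library (5 at an unadjusted p under 0.05 in each, edgeR) and 1 without WT GD of the genotype set. The share of all transcripts called was 16% and 18.7% without the mock or the GD library of the stress set, 0.0482% without either deficient library, 0.984% without WT GD, and 18.7% in the genotype set alone, where 9 chains were higher and 2 lower. The difference of the GD response between sets (6 chains) was 3 with DESeq2, which gave no adjusted p for COL14A1 or COL10A1, and the cause was not tested. The TG count of 6 was 6 to 8 under its alternatives. No chain called in GD or genotype changed direction under these alternatives. COL14A1, not called in GD over the 6 libraries (0.08), was called lower in the genotype set alone (-0.757, edgeR adjusted p 0.0008331) and without either WT library of the stress set. The labels carry no replicate numbers. With set and genotype as terms, the GD test compares mock and GD within the 3 pairs, and treatment as the only term is its unpaired form. Leaving out 1 library of the stress set or of the deficient cells leaves its partner no weight in that test. Fits without a stress-set library thus nearly repeat that of the genotype set alone. Those without a deficient library nearly repeat that of the WT libraries alone, so they are not separate checks.

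The tested chains with under 100 reads in every library (COL9A2, COL5A3, COL7A1, COL17A1, COL8A2 and COL4A3) have errors of 0.258 to 0.439 on the log2 scale in GD, against 0.0823 for LAMC1.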

Other observations

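Matricellular proteins and proteins that sit on collagen fibrils did not move together. Of 11 tested partners of the fibrillar matrix, 2 rose and 3 fell in GD by edgeR, against 9.75% and 11.1% of all transcripts. TGFBI, a collagen-binding protein, had 17 reads in mock and 18 in GD of the stress set, 12 and 77 in WT and 22 and 86 in deficient cells of the genotype set (log2 change 1.95, SE 0.458, adjusted p 0.0167). TNC, the matricellular protein tenascin-C, had 524 and 456, 516 and 1135, and 816 and 1713 reads (0.999, SE 0.177, adjusted p 0.005235). LUM, a proteoglycan that binds fibrils, fell (-1.85, adjusted p 0.004834) from 110, 60 and 101 mock reads to 22, 10 and 30, and the fibrillins FBN2 (-0.61) and FBN1 (-0.39) fell. In TG, 3 of 9 were past 2-fold, all higher: TGFBI with 101 reads, TNC with 2602 and THBS1 with 1802, against 17, 524 and 367 in mock. Over all transcripts, 4.75% were higher past 2-fold in TG.

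Among 13 tested genes of collagen degradation, 2 fell in GD, near the 11.1% of all transcripts that were called lower. MMP15, a membrane-bound metalloproteinase, had 276 and 84, 346 and 111, and 284 and 89 reads in mock and GD (log2 change -1.36, SE 0.173, edgeR adjusted p 0.001155). The inhibitor TIMP2 had 3539 and 1558, 2734 and 1588, and 3093 and 1896 reads (-0.58, SE 0.0849, adjusted p 0.002328). Both were also lower past 2-fold in TG (88 and 1793 reads), where MMP13 was higher (40 reads in mock and 170 in TG), of 10. Over all transcripts, 3.36% were lower and 4.75% higher past 2-fold in TG. Together the collagen and laminin chains took between 0.156% (TG) and 0.362% (deficient mock) of all counted reads.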
